A study of Rattus norvegicus with 8 samples.

Results

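Mitochondrial ribosomal proteins and the machinery that brings nuclear-encoded proteins into mitochondria were followed by RNA sequencing of rat dorsal root ganglia. The genes were chosen by symbol: mitochondrial ribosomal proteins (Mrpl and Mrps), the inner and outer membrane translocase families (Timm and Tomm), the coiled-coil-helix family (Chchd), Romo1, Pam16 and Dnajc19. In the table that sets IMQ against WT, 50 of 4136 listed genes matched, with 21 Mrpl, 15 Mrps, 5 Timm, 5 Tomm and 3 Chchd genes and Romo1. In the table that sets lidocaine against IMQ, 0 of 775 listed genes matched. Pam16 and Dnajc19 were in neither table. RefSeq (assembly GRCr8) names 118 protein-coding rat genes that match the same pattern, copies included, and 49 of the 50 listed genes were found there by symbol (the exception was Mrps36). Tomm40, Tomm70, Timm23, Timm44 and Timm50 are among the genes that were not listed, and no level is given for them.

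The 8 libraries came from ganglia of Sprague Dawley rats weighing 250 g, all labelled wild type by genotype and taken on day 7. The 3 IMQ libraries came from rats given imiquimod, a Toll-like receptor 7 agonist that inflames skin, on the back for 6 days. The 2 lidocaine libraries came from rats given the same 6 days of imiquimod plus epidural 1% lidocaine, a sodium channel blocker, for 4 days from day 3. The 3 WT libraries came from untreated rats, and no vehicle on the skin is described for them. The labels do not say whether each library is a separate animal or a pool, so p-values measure only the spread between these libraries. Values are log2(normalized count + 1) as deposited, and each listed gene had already differed by at least 1.00 between group means, so the table is a selection. Counts of genes past a threshold therefore describe how evenly a selected difference ran through the libraries. Gene lengths were not used, so levels are compared between libraries and not between genes.

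Mitochondria carry their own ribosome, which makes the few respiratory chain subunits encoded in mitochondrial DNA, while all of its proteins are encoded in the nucleus and made in the cytosol. Those proteins, like nearly all others of the organelle, enter through the translocase of the outer membrane (TOM) and are passed on by small chaperones of the intermembrane space or by translocases of the inner membrane (TIM). Sensory neurons have long axons and a high demand for mitochondrial energy, and genes of this kind are expressed in all nucleated cell types of a ganglion.

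All 50 listed genes were lower in IMQ than in WT ganglia. The median difference was -1.25 on the log2 scale, with the widest at -2.28 for Mrpl33 and the narrowest for Mrpl47, which fell by 1.00. The difference passed the threshold (limma, Benjamini-Hochberg adjusted p under 0.05 over all 4136 genes) in 49 of 50 genes, where 37.0% of all listed genes passed as lower. That background is set by direction: 38.9% of listed genes were lower at all, and 95.1% of those passed. In 49 of 50 genes the 3 IMQ libraries all lay below the 3 WT libraries, where 35.8% of listed genes did. The median level of the 50 genes was 9.85, 9.85 and 9.66 in IMQ libraries, against 10.34, 11.07 and 11.66 in WT libraries. IMQ libraries thus lay close together and below WT1, the lowest WT library, with WT2 and WT3 well above it. The count of genes past the threshold fell to 24 without WT2 or without IMQ3, to 28 without IMQ2 and to 32 without IMQ1. It was 42 without WT3 and 50 without WT1. Over all listed genes, the 1530 passing as lower became 884, 885, 1033 and 1131 when WT2, IMQ3, IMQ2 and IMQ1 were left out in turn. They were 1241 without WT3 and 1559 without WT1. In bulk tissue, fewer cells of a type and less RNA per cell cannot be told apart.

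**Figure D1:**
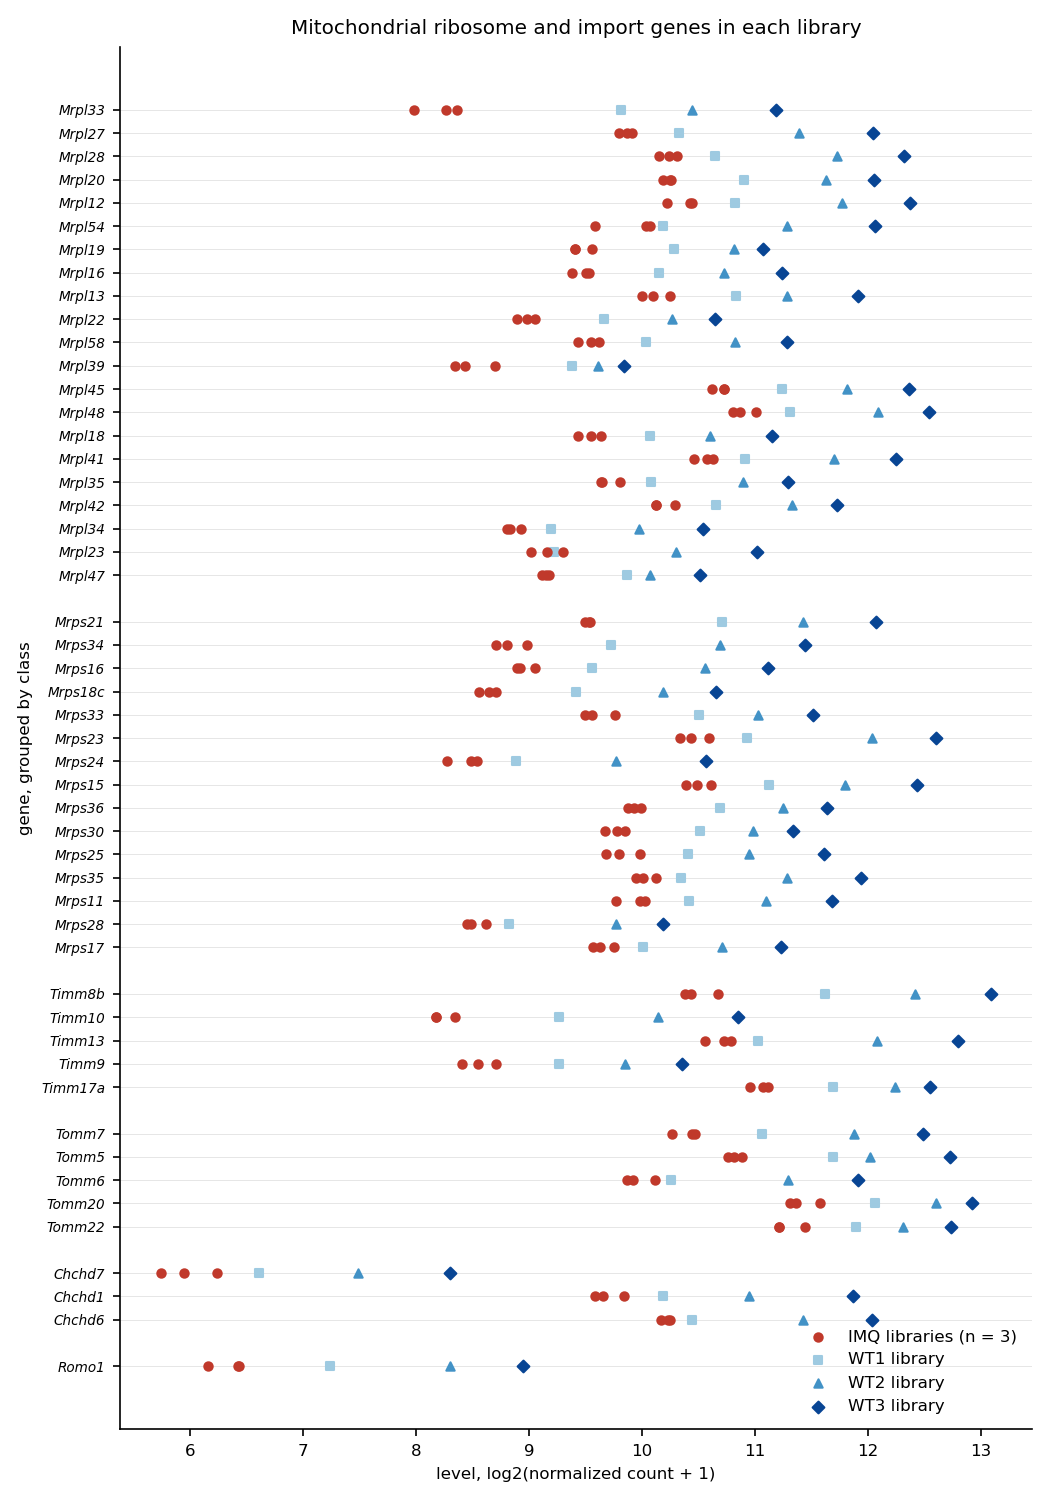
Level of each of the 50 genes, as log2(normalized count + 1), in the 3 IMQ libraries (red circles) and in libraries WT1 (squares), WT2 (triangles) and WT3 (diamonds), 1 row per gene grouped by class. Red points lie left of the WT points in every row except Mrpl23, where IMQ1 at 9.30 lies right of WT1 at 9.22, and WT3 is the highest library in every row.

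Among the 6 genes with the widest differences, Mrpl33, Mrps21, Timm8b, Timm10 and Romo1 have a promoter window in the RefSeq table. Each of these 5 windows holds the core letters CCGGAAG of sites for ETS family factors on one strand or the other. The family includes GABPA, which is known for binding promoters of nuclear genes for mitochondrial proteins. The same letters were in 32.5% of the 40 windows found for listed mitochondrial ribosome and import genes, against 11.6% for protein-coding genes. Without these 5 genes the share was 22.9%. It was 33.3% for listed cytosolic ribosomal protein genes, 26.7% for oxidative phosphorylation genes and 15.5% for other lower genes. The 5 genes were picked by the size of their difference, and none of these shares was tested. Stretches of 4 promoters are shown, those of the genes with the widest differences whose match lies before the start. Mrps21 is left out for that reason. They are given on the gene's own strand, with matches in capitals and coordinates in GRCr8. The Mrpl33 stretch is chr6:30553988-30554067 on the minus strand, the Timm8b stretch chr8:59850606-59850699 on the plus strand, the Timm10 stretch chr3:90315059-90315138 on the plus strand and the Romo1 stretch chr3:165119714-165119793 on the plus strand.
Mrpl33: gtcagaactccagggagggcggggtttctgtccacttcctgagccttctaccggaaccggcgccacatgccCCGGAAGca
Timm8b: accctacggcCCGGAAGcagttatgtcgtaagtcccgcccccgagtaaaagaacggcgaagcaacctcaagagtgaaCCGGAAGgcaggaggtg
Timm10: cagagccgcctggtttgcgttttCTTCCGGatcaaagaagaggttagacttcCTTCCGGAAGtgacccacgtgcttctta
Romo1: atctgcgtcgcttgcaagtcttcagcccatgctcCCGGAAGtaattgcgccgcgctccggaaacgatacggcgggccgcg
Counted back from the annotated start, the match begins at -9 in Mrpl33, at -121 and -54 in Timm8b and at -46 in Romo1. In Timm10 the motif reads on the other strand from -57 and from -28, and on the gene's strand from -25, so the last pair of matches overlaps in a palindrome. In Mrps21 the match lies 8 to 14 bases past the start, on the other strand. A match of letters is a description of the sequence and not a shown binding site.

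Large subunit proteins of the mitochondrial ribosome were lower by a median of -1.18, and 20 of 21 listed genes passed. Mrpl33, a small protein of the large subunit with a bacterial counterpart, was at 8.27, 8.36 and 7.98 in IMQ libraries, against 9.82, 10.44 and 11.19 in WT libraries. The groups stood well apart at their nearest values, and WT3 was the highest library. The means were 8.20 ± 0.20 in IMQ and 10.48 ± 0.69 in WT (SD, n = 3 each), a 4.85-fold lower level (-2.28, SE 0.38, limma adjusted p = 0.00236). Mrpl27, which in bacteria reaches towards the peptidyl transferase centre, had 9.87, 9.91 and 9.80 in IMQ libraries, against 10.33, 11.39 and 12.05 in WT libraries. The groups did not overlap, but WT1 lay nearer to the IMQ libraries than to WT2 (-1.40, SE 0.42, limma adjusted p = 0.0184). Mrpl28 had 10.31, 10.24 and 10.15 in IMQ libraries, against 10.64, 11.73 and 12.32 in WT libraries. It showed the same layout, with WT1 close above IMQ1 (-1.33, SE 0.42, limma adjusted p = 0.0203). Without WT2, or without any of the IMQ libraries, neither Mrpl27 nor Mrpl28 passed the threshold.

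Mrpl19 had a smaller spread among WT libraries. It was at 9.56, 9.41 and 9.41 in IMQ libraries, against 10.28, 10.81 and 11.07 in WT libraries (-1.26, SE 0.27, limma adjusted p = 0.00619). Mrpl47 had the smallest difference of the class at 9.11, 9.15 and 9.18 in IMQ libraries, against 9.86, 10.07 and 10.51 in WT libraries, and it still passed, with a narrow range in both groups (it fell by 1.00, SE 0.26, limma adjusted p = 0.0112). Mrpl47 overlaps Actl6a and Ndufb5 in RefSeq and has 2 named copies, so its reads cannot be assigned to it with certainty.

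Mrpl23, a protein near the exit of the ribosomal tunnel, was the gene that did not pass. It had 9.30, 9.16 and 9.02 in IMQ libraries, against 9.22, 10.30 and 11.02 in WT libraries. IMQ1 lay above WT1, so the groups overlapped, and the WT values ran over 1.80 on the log2 scale (-1.02, SE 0.44, limma adjusted p = 0.0550). Without WT1 the difference was -1.50 and passed (limma adjusted p = 0.00166). The 14 large subunit genes with a bacterial counterpart had a median of -1.23 and the 7 without such a counterpart -1.11. The second set includes Mrpl58, a peptidyl-tRNA hydrolase built into the ribosome, at -1.18, and Mrpl45, which in mammals faces the inner membrane at the tunnel exit, at -1.11.

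Small subunit genes were lower by a median of -1.29, and 15 of 15 passed. Mrps21, a small subunit protein with a bacterial counterpart, was nearly constant in IMQ libraries at 9.53, 9.54 and 9.50, against 10.71, 11.43 and 12.07 in WT libraries. Every WT library was more than 1 above every IMQ library (3.68-fold lower, -1.88, SE 0.36, limma adjusted p = 0.00405). Mrps34, a subunit found in mitochondrial and not in bacterial ribosomes, had 8.98, 8.80 and 8.71 in IMQ libraries, against 9.73, 10.69 and 11.44 in WT libraries. The groups did not overlap (-1.79, SE 0.43, limma adjusted p = 0.00863). Mrps16 had 8.89, 9.06 and 8.92 in IMQ libraries, against 9.56, 10.56 and 11.11 in WT libraries. WT1 was the nearest to the IMQ libraries, and without WT2 the gene did not pass (-1.45, SE 0.40, limma adjusted p = 0.0137 with all libraries). Mrps33 had 9.56, 9.77 and 9.49 in IMQ libraries, against 10.50, 11.03 and 11.51 in WT libraries, again without overlap (-1.41, SE 0.30, limma adjusted p = 0.00619).

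Mrps17, with the smallest difference of the small subunit class, had 9.76, 9.63 and 9.56 in IMQ libraries, against 10.01, 10.71 and 11.23 in WT libraries. WT1 lay close above IMQ1, and the call was lost without WT2 or without any of the IMQ libraries (it fell by 1.00, SE 0.34, limma adjusted p = 0.0254). Named copies or pseudogenes exist for Mrps21, Mrps16 and Mrps17, so these levels are uncertain to the extent that copies took part of the reads. Some symbols of the class name proteins that are known from elsewhere. Mrps30 sits in the large subunit despite its name and was lower by -1.18 (SE 0.28), and Mrps36 is known as a part of the oxoglutarate dehydrogenase complex and was lower by -1.26 (SE 0.29). Both passed (limma adjusted p = 0.00800 and 0.00768).

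The import side was ordered by role. Small TIM chaperones, which escort hydrophobic proteins across the intermembrane space, had the widest median at -1.57 over 4 listed genes. Timm8b, thought to partner Timm13 in a hexamer, had 10.38, 10.67 and 10.44 in IMQ libraries, against 11.62, 12.42 and 13.08 in WT libraries. The groups stood well apart, with WT1 as the nearest WT library (3.68-fold lower, -1.88, SE 0.38, limma adjusted p = 0.00496). Timm13 itself had 10.73, 10.79 and 10.56 in IMQ libraries, against 11.02, 12.08 and 12.80 in WT libraries, so that WT1 was close above IMQ2 (-1.28, SE 0.43, limma adjusted p = 0.0260). Timm10 had 8.17, 8.35 and 8.18 in IMQ libraries, against 9.27, 10.14 and 10.85 in WT libraries, with a clear gap (3.61-fold lower, -1.85, SE 0.41, limma adjusted p = 0.00644). Timm9, its partner in the other hexamer, had 8.71, 8.41 and 8.55 in IMQ libraries, against 9.27, 9.85 and 10.35 in WT libraries (-1.27, SE 0.33, limma adjusted p = 0.0113). In each chaperone pair the difference was wider for 1 partner, Timm8b and Timm10, and the difference between partners was not tested. Timm8b overlaps Nkapd1, and Timm9 overlaps Tomm20l and Kiaa0586 in RefSeq.

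Parts of the TIM23 channel, which takes precursors with a presequence through the inner membrane, were also lower. Timm17a had 11.12, 11.07 and 10.96 in IMQ libraries, against 11.69, 12.24 and 12.55 in WT libraries, without overlap (-1.11, SE 0.27, limma adjusted p = 0.00989). Romo1, a small inner membrane protein bound to the same translocase, was measured at a low level, with 6.43, 6.43 and 6.16 in IMQ libraries, against 7.24, 8.30 and 8.94 in WT libraries. Its WT range was wide and its groups did not overlap (3.54-fold lower, -1.82, SE 0.46, limma adjusted p = 0.0103).

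At the outer membrane, the receptors Tomm20 and Tomm22, which recognise arriving precursors, had a median of -1.07, and the small subunits Tomm5, Tomm6 and Tomm7, which steady the channel, had -1.32. Tomm20 had 11.58, 11.36 and 11.31 in IMQ libraries, against 12.06, 12.60 and 12.92 in WT libraries (-1.11, SE 0.28, limma adjusted p = 0.0104). Tomm22 had 11.44, 11.21 and 11.21 in IMQ libraries, against 11.89, 12.31 and 12.73 in WT libraries (-1.02, SE 0.27, limma adjusted p = 0.0126). The groups did not overlap for either receptor, and the call of Tomm22 was lost without IMQ3. Tomm7 had 10.44, 10.47 and 10.26 in IMQ libraries, against 11.06, 11.88 and 12.48 in WT libraries (-1.42, SE 0.37, limma adjusted p = 0.0115). Tomm5 had 10.81, 10.88 and 10.76 in IMQ libraries, against 11.69, 12.02 and 12.73 in WT libraries (-1.32, SE 0.30, limma adjusted p = 0.00757). Both stood clear of WT1, whereas Tomm6 came close to it, with 10.11, 9.92 and 9.87 in IMQ libraries, against 10.26, 11.29 and 11.91 in WT libraries (-1.19, SE 0.42, limma adjusted p = 0.0284). Tomm20 has 4 named copies in RefSeq and Tomm7 has 5, and how such reads were split is not given in the sources used here.

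The 3 listed Chchd genes belong to different machines. Chchd1, a subunit of the small mitochondrial ribosomal subunit, had 9.85, 9.65 and 9.59 in IMQ libraries, against 10.18, 10.95 and 11.87 in WT libraries (-1.31, SE 0.42, limma adjusted p = 0.0220). Chchd6, which helps to hold the folds of the inner membrane, had 10.25, 10.17 and 10.23 in IMQ libraries, against 10.45, 11.43 and 12.04 in WT libraries (-1.09, SE 0.40, limma adjusted p = 0.0326). Chchd7, known from yeast as an assembly factor of cytochrome oxidase, was the gene with the fewest reads, 47 in IMQ2, and had 6.24, 5.75 and 5.95 in IMQ libraries, against 6.61, 7.49 and 8.30 in WT libraries (-1.49, SE 0.47, limma adjusted p = 0.0204). The groups of all 3 were separate, but WT1 lay close above IMQ1 in each. Calls of genes with WT1 close to the IMQ libraries depended on single libraries. Chchd6, Timm13 and Tomm6 did not pass without WT2, WT3 or any of the IMQ libraries, Chchd1 without WT2 or any of the IMQ libraries, and Chchd7 without WT2, IMQ2 or IMQ3. Leaving out Chchd6 and Chchd7 kept the median of the remaining genes at -1.25.

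The size of the difference depended on which WT library stood for WT. The mean of the 3 IMQ libraries was below WT1 in 50 of 50 genes, by a median of -0.61, and was lower by at least 1 in 4 of them: Mrpl33, Mrps21, Timm8b and Timm10. Of all listed genes 16.1% were lower by at least 1 against WT1 alone, or 41.4% of those lower in IMQ. Against WT2 alone the median was -1.29, and 49 genes were lower by at least 1, where 36.9% of all listed genes and 95% of the lower ones were. Against WT3 alone the median was -1.82, and 50 genes were, where 37.8% of all listed genes and 97.2% of the lower ones were. All 3 IMQ libraries lay below WT1 in 49 of 50 genes, and in 1508 of all 4136 listed genes. Those 1508 were among the 1608 listed genes lower in IMQ, of which 1585 had an IMQ mean below WT1. By class, the median against WT1 alone was -0.50 for Mrpl, -0.60 for Mrps, -0.71 for Timm, -0.64 for Tomm and -0.49 for Chchd genes, and Romo1 stood at -0.90. Against WT3 alone the same classes had -1.69, -1.91, -2.11, -1.90 and -2.18, and Romo1 had -2.60. Chchd genes thus had the smallest class median against WT1 and the widest of the multi-gene classes against WT3, and their median excess of WT3 over WT1 was 1.69, compared with 1.04 for Tomm genes. Without WT3 the median of the 50 genes was -0.94, and without WT1 it was -1.53. The direction was the same in all these settings.

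**Figure D2:**
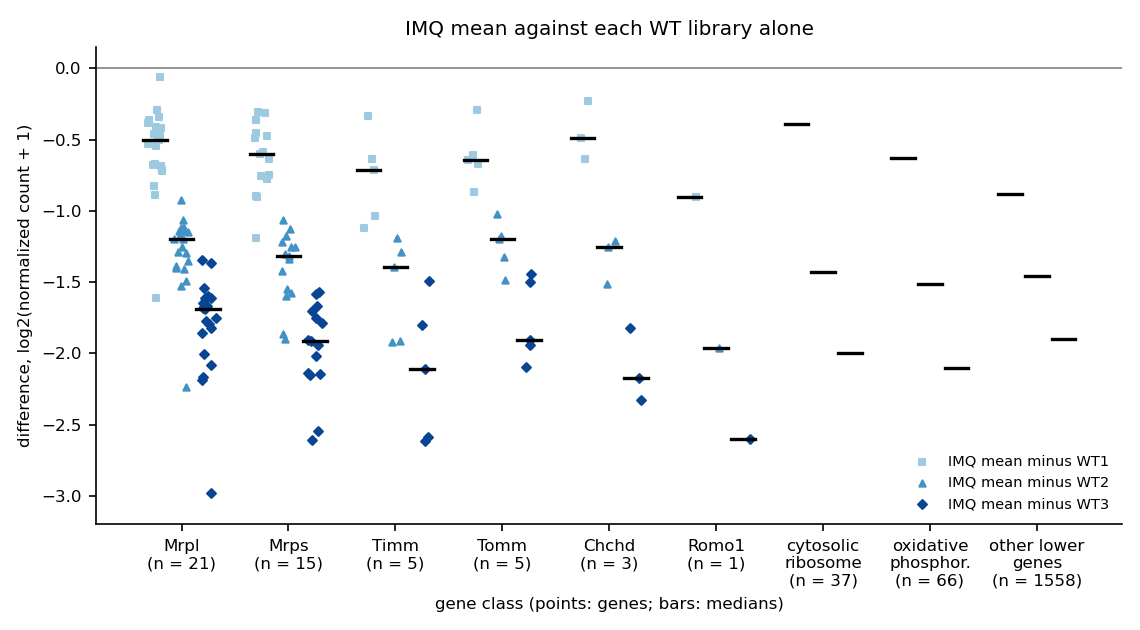
Mean of the 3 IMQ libraries minus WT1 (squares), WT2 (triangles) or WT3 (diamonds), in log2(normalized count + 1), for each gene by class (points) with the class median (bar), and medians alone for 3 sets of other listed genes. Every class shows 3 steps, and for the 50 genes together the steps lie at -0.61, -1.29 and -1.82.

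The WT libraries differed among themselves in a fixed order for these genes. WT3 was the highest and WT1 the lowest library in 50 of 50 genes, an order found in 1153 of the 1608 listed genes that were lower in IMQ and in 1545 of all 4136. It was found in 35 of 37 cytosolic ribosomal protein genes and in 65 of 66 oxidative phosphorylation genes. WT3 exceeded WT1 by a median of 1.29, from 0.46 in Mrpl39 to 1.87 in Mrpl54. The 3 IMQ libraries ran over a median of 0.19 and at most 0.50. The median SD was 0.10 in IMQ libraries and 0.64 in WT libraries, and the WT range exceeded the IMQ range in 50 of 50 genes, against 3226 of all 4136, and in 37 of 37 and 66 of 66 genes of those 2 sets. Mrpl39 came nearest to equal spread, with 8.44, 8.70 and 8.34 in IMQ libraries, against 9.38, 9.61 and 9.84 in WT libraries. Since limma used 1 spread per gene for both groups, the SE of a difference mostly carries the WT spread. Relative depth, taken from the value of a single read after the authors' scaling, was 0.808 to 0.912 in IMQ libraries and 1.09 to 1.34 in WT libraries, and its part in the result was not tested.

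**Figure D3:**
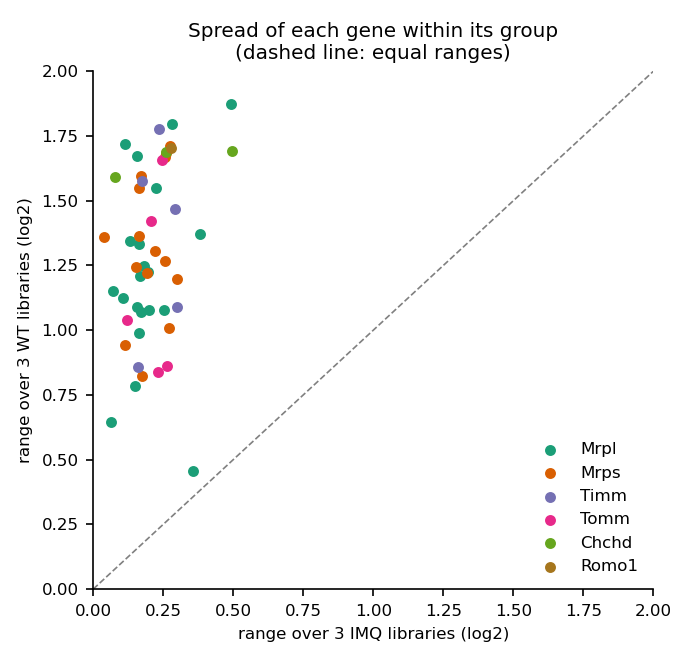
Highest minus lowest library within the 3 IMQ libraries (horizontal axis) and within the 3 WT libraries (vertical axis), in log2 units, for each of the 50 genes coloured by class. All 50 points lie above the dashed line of equal ranges, and the IMQ ranges end at 0.50 while WT ranges reach 1.87.

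As a share of expression the same pattern held. The summed normalized counts of the 50 genes were 50953, 49941 and 45866 in IMQ libraries, against 74133, 122130 and 179497 in WT libraries. They made up 0.981%, 0.985% and 0.919% of all listed normalized counts in IMQ libraries, against 1.64%, 1.98% and 2.23% in WT libraries. The IMQ shares were nearly equal and all below the WT shares, of which WT1 had the lowest. With every library scaled to the same total over listed genes, 50 of 50 genes passed and the median difference was -0.99. Among all listed genes, 1391 passed as lower under the same scaling, where 1608 were lower in IMQ in the deposited values. That scaling divides each library by 1 number, so every gene moves by nearly the same amount. The medians of all listed genes and of the 50 genes both moved by 0.26, which says nothing particular to the 50.

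To see which genes departed from the shared difference, the median of the 50 genes in a library was taken off every value of that library, and the fit over all 4136 genes was repeated, a step added after the values were seen. The shared shift was -1.24, and every listed gene had already differed by at least 1.00, so a gene lower in IMQ could not stand above the shift by more than 0.24. The relative scale can therefore show genes below the shift and not genes above it. Mrpl33, Timm8b, Mrps21, Timm10 and Mrps34 were lower than the shared shift and passed the threshold (limma, adjusted p under 0.05). These were 5 of 50 genes, against 5.46% of all listed genes. A gene higher in IMQ could not pass here as lower. The 226 listed genes that passed were thus all among the 1608 lower in IMQ. That larger share is the one to set beside 5 of 50, which is not above it. Mrpl33 had relative levels of -1.58, -1.48 and -1.68 in IMQ libraries, against -0.52, -0.62 and -0.47 in WT libraries. All IMQ values lay far below all WT values (-1.04, SE 0.18, limma adjusted p = 0.00473). Taking the median off each library removes by construction the WT order that the genes share. In several genes, Timm8b, Timm10, Mrps34 and Romo1 among them, values still rose from WT1 through WT2 to WT3. Mrps21 was at -0.31, -0.31 and -0.16 in IMQ libraries, against 0.37, 0.36 and 0.41 in WT libraries, so it lay below the median gene in IMQ and above it in WT (-0.64, SE 0.15, limma adjusted p = 0.0125). Timm8b was at 0.53, 0.82 and 0.78 in IMQ libraries, against 1.28, 1.35 and 1.43 in WT libraries (-0.64, SE 0.14, limma adjusted p = 0.0109).

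Timm10 and Mrps34 followed with less even values. Timm10 had relative levels of -1.67, -1.50 and -1.48 in IMQ libraries, against -1.07, -0.92 and -0.81 in WT libraries (-0.62, SE 0.20, limma adjusted p = 0.0332). Mrps34 had -0.86, -1.04 and -0.95 in IMQ libraries, against -0.61, -0.37 and -0.22 in WT libraries (-0.55, SE 0.19, limma adjusted p = 0.0422). Romo1 had -3.41, -3.42 and -3.50 in IMQ libraries, against -3.10, -2.77 and -2.71 in WT libraries, which did not overlap but did not pass (-0.59, SE 0.26, limma adjusted p = 0.0967). Without WT2 only Mrpl33 still passed (limma adjusted p = 0.0270), and without WT3 or any of the IMQ libraries Mrpl33, Mrps21 and Timm8b did. With WT1 left out Romo1 joined the 5 (limma adjusted p = 0.0460). Mrps18c and Tomm7 had all IMQ libraries below all WT libraries on the relative scale, at -0.21 and -0.18, and Mrps11, Mrpl41, Mrpl34 and Mrps17 had them above, at 0.10, 0.17, 0.19 and 0.24, inside the limit that the selection sets. None of these 6 passed.

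**Figure D4:**
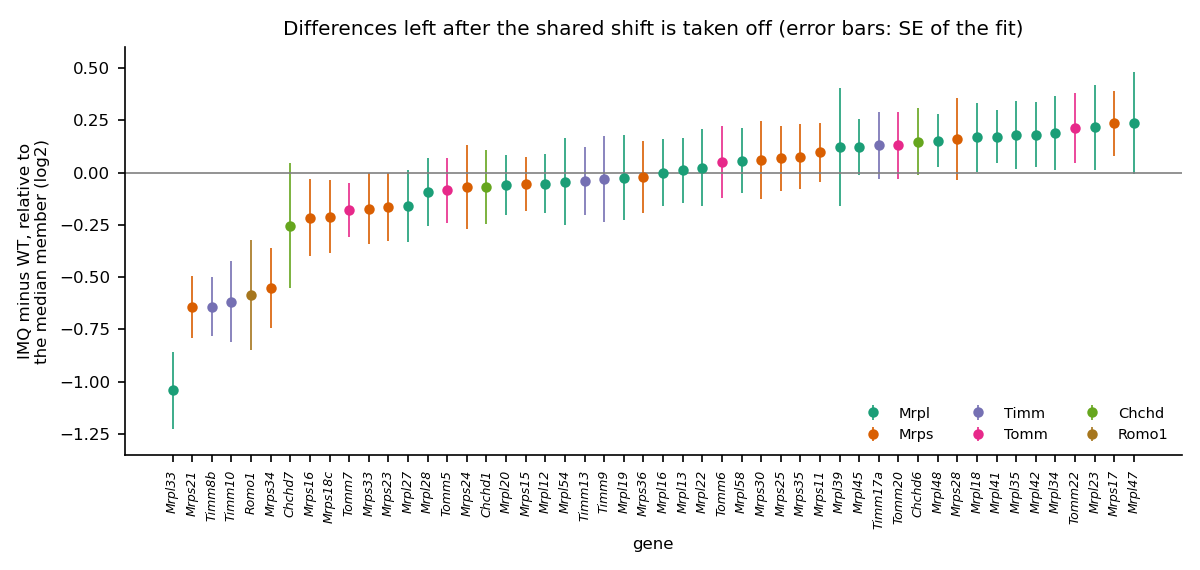
Relative difference of each gene, IMQ minus WT in log2 units after the median of the 50 genes was taken off each library, with the SE of the fit as error bars, ordered from lowest to highest and coloured by class. Mrpl33 at -1.04 stands apart on the left, Mrps21, Timm8b, Timm10, Romo1 and Mrps34 follow between -0.64 and -0.55, and the right end stops at 0.24, the limit that the selection of listed genes sets.

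Other sets of genes that cells use for protein synthesis and respiration gave similar values. The 37 listed cytosolic ribosomal protein genes had a median of -1.26 and the 66 listed nuclear genes of oxidative phosphorylation -1.40, and 35 and 66 of them passed. The other 1558 listed genes that were lower in IMQ had a median of -1.38. Against WT1 alone, cytosolic ribosomal proteins were lower by a median of -0.39, oxidative phosphorylation genes by -0.63 and the other lower genes by -0.88, beside -0.61 for the mitochondrial ribosome and import genes. WT3 exceeded WT1 by 1.59, 1.44 and 1.05 in the same 3 sets, beside 1.29. The differences between these sets were not tested. Of genes encoded in mitochondrial DNA, Mt-nd3 alone was listed, at -1.31.

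Genes that work beside the mitochondrial ribosome and the translocases were counted from separate lists. Of 25 further import genes 7 were listed, and 6 passed as lower: the chaperonin partner Hspe1 at -1.72, Dnlz at -1.23, the outer membrane protein Mtx2 at -1.17, Grpel1, the nucleotide exchange factor of the import motor, at -1.10, the inner membrane peptidase subunit Immp1l at -1.07 and Gfer, which reoxidises the intermembrane space import pathway, at -1.03. Tspo, an outer membrane protein abundant in myeloid cells and not itself known as a protein import factor, was the exception on this list. It had 10.65, 10.29 and 10.40 in IMQ libraries, against 8.08, 9.29 and 9.63 in WT libraries. All IMQ libraries lay above all WT libraries, although WT3 was again the highest WT library (1.45, SE 0.42, limma adjusted p = 0.016).

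Of 36 translation and ribosome assembly factors 6 were listed, all lower, and 5 passed: the RNA-binding Slirp at -1.88, the large subunit assembly factor Malsu1 at -1.70, Mterf4 at -1.28, Cmss1 at -1.16 and Gadd45gip1 at -1.02. Of these, Cmss1 is known from assembly of the cytosolic and not of the mitochondrial ribosome. Mpv17l2 had -1.07 and did not pass (limma adjusted p = 0.101). Of 21 twin-cysteine, respiratory chain assembly and cristae genes 11 were listed and all passed as lower, among them Uqcrh at -2.29, Cmc2 at -2.04 and Cox17 at -1.57. Of 17 mitochondrial aminoacyl-tRNA synthetases and of 18 genes of mitochondrial DNA upkeep and biogenesis, 0 were listed. Absence from the table says only that a gene missed the authors' selection.

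Markers of other cell types moved alongside. The 4 listed of 18 neuronal markers (Sncg, Prph, Nefm and Tac1) all passed as lower, and their summed normalized counts were 339785 to 351966 in IMQ libraries, against 544626 to 1050117 in WT libraries. Listed skeletal muscle markers, 11 of 15, all passed as lower and summed to 2640 to 3281 in IMQ libraries, against 5703 to 14844 in WT libraries. Among them Pvalb had 11.34, 11.18 and 11.08 in IMQ libraries, against 12.18, 13.02 and 13.56 in WT libraries. Pvalb made up most of each sum, so the sums mostly describe that gene and not muscle in general. Listed erythroid markers, 6 of 13, all passed as lower and summed to 19556 to 79051 in IMQ libraries, against 141110 to 405759 in WT libraries. The WT libraries were uneven in these 3 lists too, and the median excess of WT3 over WT1 was 0.97, 1.26 and 1.23. The order was not always that of the mitochondrial genes. For every listed muscle marker except Pvalb, WT2 and not WT3 was the highest WT library, as in Ckm with 6.48, 9.37 and 8.20. The same held for Alas2 and Rhd among erythroid markers. Listed macrophage markers, 14 of 15, all passed as higher and summed to 128119 to 155988 in IMQ libraries, against 13328 to 16156 in WT libraries, and WT3 exceeded WT1 there by 0.12. Of 9 satellite glia markers 5 were listed, all higher, and of 10 Schwann cell and 8 adipocyte markers 0 were listed. Listed endothelial (4 of 8), fibroblast (4 of 9) and neutrophil (5 of 10) markers were all higher, and of 12 listed of 15 lymphocyte markers 11 were higher and Cd79a was lower. The excess of WT3 over WT1 was 0.90 for lymphocyte, 0.71 for neutrophil, 0.16 for satellite glia and 0.14 for endothelial markers, and it was -0.51 for fibroblast markers. No listed marker was at 0 in every library. The part of these cell types in the mitochondrial values was not tested.

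Promoter windows, 250 bases before to 50 after the annotated start, were found in RefSeq for 40 of the 50 genes. They were searched on both strands for 3 short motifs of factors known to act on nuclear genes for mitochondrial proteins. The ETS motif CCGGAAG was in 13 of 40 windows (32.5%), compared with 11.6% of 19005 protein-coding genes. It was in 33.3% of windows of listed cytosolic ribosomal protein genes, 26.7% of those of oxidative phosphorylation genes, 15.5% of those of other lower genes and 6.36% of those of genes higher in IMQ. The NRF1 motif GCATGCGC was in 2 windows (5%, against 3.32% of protein-coding genes), those of Mrpl22 and Tomm7, and in Tomm7 the matches on both strands overlapped. The YY1 motif AAGATGGC was in 3 windows (7.50%, against 4.08%), those of Mrps30, Mrpl48 and Mrpl42. Outside the 5 genes with the widest differences and a window, the ETS motif was in 8 of 35 windows (22.9%). These shares were not tested, and they depend on how well each start is annotated.

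**Figure D5:**
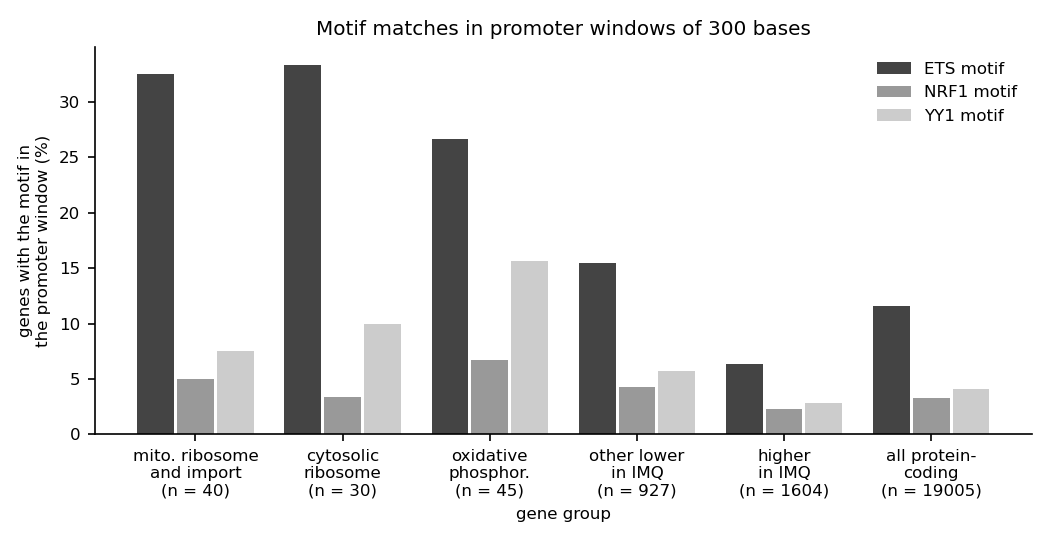
Percent of genes whose 300-base promoter window holds the ETS, NRF1 or YY1 motif on either strand, by gene group, with the number of windows under each group. The ETS bars of mitochondrial ribosome and import genes (32.5%) and of cytosolic ribosomal proteins (33.3%) are similar and stand above that of all protein-coding genes (11.6%).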

How the data were processed

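RNA was sequenced from 8 libraries of dorsal root ganglia in 3 groups taken from sample titles. STAR 2.5.3a, bcl2fastq and DESeq2 were used, per the submitters' processing notes. The build, annotation, counter and strand setting were not given in the sources used here. The deposited values are on a log2 scale, log2(normalized count + 1), as read from the values themselves: on the linear scale, 100% of values between 1 and 2000 reads came out as whole reads (tolerance 0.02 reads). Listed genes held 4311091 to 9035486 reads per library in the table of IMQ against WT. Counting error is thus small beside the spread of the WT libraries for all but low genes. It was not set against the much narrower spread of the IMQ libraries.

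IMQ and WT were compared by limma-trend (limma 3.58.1, R 4.3.3) with equal weights, a filter of mean normalized count of at least 1 and Benjamini-Hochberg adjustment over 4136 genes, after the script was tested on simulated data. Differences understate the change of low genes. The 50 genes, the lists and the tests were chosen with earlier results of these data known. Named genes are, per class, the 3 widest and the narrowest difference, classes of 5 or fewer in full, the 5 smallest adjusted p-values and exceptions. Others were chosen after their values were seen, as was the Romo1 promoter. RefSeq tables of GRCr8 gave names, neighbours and promoters. Proteins were not used here.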

Additional observations from a re-analysis of the deposited data

How the results depend on the processing

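Of the 50 genes, 14 passed at an adjusted p under 0.01 in place of 49 at 0.05. Leaving out 1 library at a time gave 24 to 50. All listed genes passing as lower numbered 1530. They numbered 884 without WT2, 885 without IMQ3, 1033 without IMQ2, 1131 without IMQ1, 1241 without WT3 and 1559 without WT1. Pseudocounts of 0.1 and 10, no filter, a mean of at least 50, limma-voom on recovered reads and genes with a symbol gave 49. Sample weights and equal totals gave 50. Among all listed genes kept, these settings in the same order gave 1472, 1540, 1530, 1072, 1501, 1528, 1590 and 1391. In the fit to the levels, sample weights were 0.133 for WT1, 4.04 for WT2 and 0.224 for WT3. They were 1.03, 1.67 and 4.82 for IMQ1, IMQ2 and IMQ3, so WT1 and WT3 counted for little. The median difference ran from -0.94 to -1.53 when 1 library was left out. Relative to the median gene, 5 genes passed, 1 to 6 when 1 library was left out, 9 with sample weights and 1 at an adjusted p under 0.01. For the 25 named genes, 336 of 375 repeats kept their side of the threshold, 36 lost it, all when 1 library was left out, and 3, all of Mrpl23, gained it. All 50 genes stayed lower in IMQ in every one of these settings that was fitted to the levels.

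With the replicate number as a block, 49 genes passed and the median was -1.25, while relative to the median gene 2 passed. Whether equal numbers pair the samples could not be decided here. Deviations of same-numbered IMQ and WT libraries correlated at -0.159, -0.058 and -0.118, and 3 libraries a group are too few to settle it. No gene of the set was listed for lidocaine against IMQ, so no alternative gave a value there. With 3 libraries a group and a selected table, neither the unlisted genes nor the cause of the spread between WT libraries could be examined.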
